A study of Homo sapiens with 2 samples.

Results

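The ETS transcription factor genes SPI1, SPIB, FLI1, ERG, ETS1, ETS2, ETV6, ELF1, ELF4 and GABPA were looked up in a list of C/EBPβ binding peaks near gene starts. The members were 10 named genes of the blood-forming and more widely acting ETS factors, out of 19392 protein-coding genes, and were found by the gene symbol in the list. A total of 6 of the 10 had at least 1 listed peak, beside 26.5% of all protein-coding genes. These 6 genes gave 9 of the 7029 peaks of the list. The binding was measured by chromatin immunoprecipitation and sequencing (ChIP-seq) in HL-60, an established human leukaemia line labelled as myeloblast, whose cells overexpressed C/EBPβ, a basic leucine zipper transcription factor. The immunoprecipitated group, made with the antibody sc-150x against C/EBPβ, and the input group, made with none, held 1 library each and shared the overexpression, so nothing was compared with cells at their own C/EBPβ level and no test between samples was possible. Input values were not analysed here. The labels name neither the construct nor whether the cells were 1 clone.

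ETS factors share a DNA-binding domain, the ETS domain, that recognises a GGAA core, and they differ in the letters around it and in their partners. PU.1, the product of SPI1, is needed for granulocytes, macrophages and B cells to form, and in myeloid cells it works on many of the same genes as C/EBP factors. FLI1 and ERG act in blood stem cells, megakaryocytes and endothelium, ETV6 is a repressor often rearranged in leukaemia, and GABPA binds the promoters of many widely used genes together with a GABPB subunit.

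The list pairs each peak with RefSeq transcripts whose start lies within 3000 bases of the peak middle, so enhancers farther from genes are outside it. It carries no peak height or p-value, and read depth is unknown. Peak width therefore describes how far a peak extends and not how strongly it was bound. Distances were recorded in genome direction. Of 8 promyelocyte genes, 6 had a listed peak, and none of 9 B cell, T cell and erythroid genes had one, beside 26.5% of all protein-coding genes. Within 1000 bases of a start, 4 of the 8 had a peak (CSF3R, CTSG, PRTN3 and MS4A3), beside 20.9%. The nearest peaks at AZU1 and MPO lay 1391 and 2896 bases away, and ELANE and CD33 had none listed. A peak is not expression, so these counts are no measure of the cell type.

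A promoter sequence was at hand for 7 of the 10 genes, with 15 start windows among them, while SPI1, FLI1 and ETS1 had none. Each window ran from 250 bases before to 50 bases after a RefSeq start (GRCh38.p14). The letters of the C/EBP site TTGCNNAA, read on both strands, occurred in 1 of the 15 windows, against 10.5% of 35116 windows of all genes. The C/EBP palindrome TTGCGCAA, which is a case of TTGCNNAA, and the C/EBP-ATF element TGATGCAA occurred in none, against 0.151% and 0.866% of all windows. The ETS letters CCGGAAGT occurred in 1, at GABPA, against 4.14% of all windows, and the PU.1 letters GAGGAAGT in 1, at ETS2, against 2.59%. The windows with a match are printed below because they are the members' own starts that hold such letters. Capitals mark the match, which in each case was the reverse complement of the letters searched, and bases after the start are shown only as far as the match.
SPIB, upstream bases, chr19:50418688-50418937, plus strand, C/EBP letters beginning 139 bases before the start: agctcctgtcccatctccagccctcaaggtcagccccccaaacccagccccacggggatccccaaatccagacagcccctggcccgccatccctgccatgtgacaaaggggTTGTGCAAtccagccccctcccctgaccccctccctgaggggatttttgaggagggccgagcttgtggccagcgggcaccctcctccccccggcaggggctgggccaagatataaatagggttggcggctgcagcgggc
GABPA, upstream bases, chr21:25734722-25734971, plus strand, ETS letters beginning 67 bases before the start: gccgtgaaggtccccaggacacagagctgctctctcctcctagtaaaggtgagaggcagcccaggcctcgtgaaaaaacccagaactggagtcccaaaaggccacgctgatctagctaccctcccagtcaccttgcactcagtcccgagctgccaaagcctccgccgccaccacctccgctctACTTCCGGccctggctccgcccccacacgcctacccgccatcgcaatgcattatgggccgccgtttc
ETS2, upstream and first 12 transcribed bases, chr21:38805679-38805940, plus strand, PU.1 letters beginning at base 5 of the transcript: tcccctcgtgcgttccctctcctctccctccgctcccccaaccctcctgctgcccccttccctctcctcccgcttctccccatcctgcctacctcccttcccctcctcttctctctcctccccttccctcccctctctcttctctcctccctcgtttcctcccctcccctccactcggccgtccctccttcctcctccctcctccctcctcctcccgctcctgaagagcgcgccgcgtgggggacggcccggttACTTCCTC
A match is not a bound site. These RefSeq starts were not placed on hg19, the build named in the submitters' processing notes. By the list's own distances, the peaks of SPIB, ETS2, ETV6 and ELF1 lay outside the span from 250 bases before to 50 bases after the starts they were paired with.

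Among the ETS factor genes, 6 of 10 were listed (60%), beside 26.5% of all protein-coding genes. At least 2 peaks were listed at 3 of the 10 (SPI1, FLI1 and ETV6), beside 7.98% of all protein-coding genes. The second FLI1 peak lay closer to the start of the noncoding RNA gene SENCR. Peaks shared between genes were counted in the same way for all protein-coding genes. A peak middle lay within 100 bases of a start at 2 of the 10 (FLI1 and SPI1), beside 6.69%, and within 1000 bases at 5 of the 10, beside 20.9%. The members were chosen with earlier results of the same list known, and they are too few for these shares to be read as a property of ETS factor genes. Among the 3 pairs of close relatives that split, ETS2 was listed and ETS1 was not, FLI1 was listed and ERG was not, and ELF1 was listed and ELF4 was not.

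At SPI1, which encodes PU.1, both listed transcripts share 1 start, at position 47400127 of chromosome 11. The first peak, at chr11:47400047-47400246, was 199 bases wide, and its middle lay 19 bases from that start, so the start was inside the peak. The second peak, at chr11:47398038-47398601, was 563 bases wide, and its middle lay at −1808 bases. SPI1 is transcribed towards lower positions, which puts the first peak on the promoter and the second inside the transcribed region. The second was the widest of the 9 peaks, and 95.7% of all listed peaks were as narrow or narrower. The peak on the start was narrower than the typical peak, with 36.7% of peaks as narrow or narrower.

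SPIB encodes the closest relative of PU.1, which acts mainly in B cells and plasmacytoid dendritic cells. Its 4 listed transcripts share the start at 50922194 on chromosome 19, and its single peak, at chr19:50919640-50919841, was 201 bases wide with the middle at −2454 bases. The RefSeq promoter table puts SPIB on the plus strand, so the peak lay upstream. It was the most distant of the 6 nearest peaks, and 95.9% of listed protein-coding genes had a peak as near or nearer. Whether this start is the RefSeq start of the SPIB window shown above was not examined.

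FLI1, an ETS factor gene of the megakaryocyte and endothelial lineages, had the peak closest to a start. Its 3 listed transcripts start at 128563810 on chromosome 11. The peak at chr11:128563729-128563904 was 175 bases wide, the narrowest of the 9, and its middle lay 6 bases from the start. Only 2.26% of listed protein-coding genes had a peak as near or nearer. The second FLI1 peak, at chr11:128565724-128566105, was 381 bases wide and lay at 2104 bases, inside the transcribed region. Both peaks were also paired with SENCR, a long noncoding RNA gene transcribed in the opposite direction within FLI1. The SENCR start was 4 bases from the middle of the second peak and 2102 bases from that of the first. The pair of peaks thus covered the FLI1 start and the SENCR start, and to which gene either peak belongs cannot be told apart. No other member shared a peak with another gene. ERG, the nearest relative of FLI1, had no listed peak.

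ETS2, which encodes a factor activated by MAP kinase signalling, had 1 peak, at chr21:40177983-40178199 and 216 bases wide. It was paired with both listed starts, at 40177230 and 40177754, and lay 861 and 337 bases from them. The gene is on the plus strand in the promoter table, so the peak lay downstream of both starts and covered neither. ETS1, which encodes a closely related factor of lymphoid cells, had no listed peak.

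ETV6 encodes the repressor also called TEL. Its 1 listed transcript starts at 11802787 on chromosome 12, and the peaks lay on either side of that start with none listed between them. The upstream peak, at chr12:11801631-11802010, was 379 bases wide with its middle at −967 bases. The downstream peak, at chr12:11803572-11803894, was 322 bases wide with its middle at 946 bases. Both were wider than the median of all listed peaks, which was 229 bases. The edges nearest the start were 777 and 785 bases away, so neither peak reached it.

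ELF1, a factor gene expressed across blood cells, had 1 peak at chr13:41555536-41555744, 208 bases wide. Its middle lay at −778 bases from the start at 41556418, the start of 1 listed transcript. ELF1 is on the minus strand in the promoter table, so this peak lay downstream. RefSeq now holds 6 curated ELF1 transcripts and 3 separate promoter windows, and the list pairs the peak with the transcript NM_001145353 alone. ELF4, whose product also goes by the name MEF, had no listed peak.

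**Figure D1:**
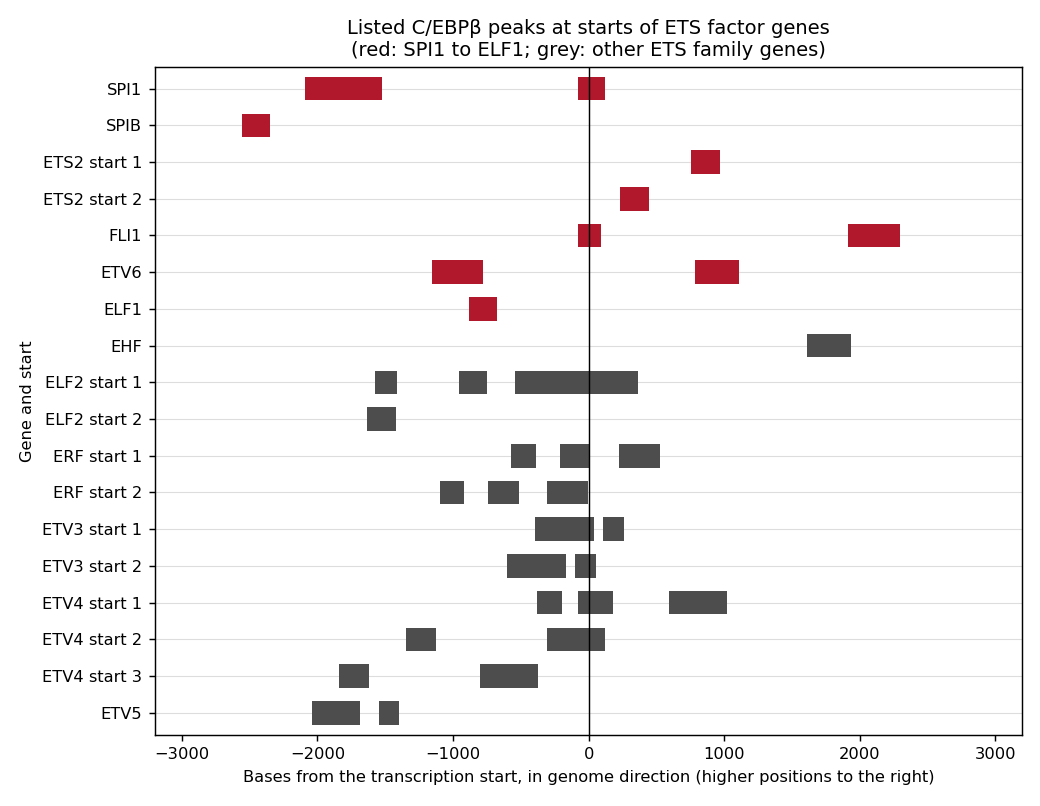
Position of each listed peak at each start of the 6 listed ETS factor genes (red) and of 6 other ETS family genes (grey), in bases from the transcription start (vertical line) in genome direction; bar length is peak width. At SPI1 and FLI1, 1 peak each covers the start, those at ETV6 lie on both sides at −967 and 946 bases, and the SPIB peak lies at −2454 bases.

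The widths of the 9 peaks ran from 175 to 563 bases. Over the whole list the smallest width was 146 bases, held by 564 of the 7029 peaks. Of all listed peaks, 24.4% were as narrow as the FLI1 peak of 175 bases or narrower. Where a peak covered the start, at SPI1 and FLI1, it was the narrower of that gene's pair, at 199 and 175 bases against 563 and 381. The wider FLI1 peak itself covered the SENCR start. Other ETS family genes did not share this order. The ELF2 peak on a start was the widest of that gene, at 910 bases, and ETV3 peaks of 435 and 158 bases each covered a start. The median width of the 9 was 216 bases, beside 229 for all listed peaks, and 4 of the 9 were above that value. A listed start of any gene lay inside 3 of the 9 peaks, those at the SPI1, FLI1 and SENCR starts, beside 24% of all listed peaks. The spacing between the peak middles was 1827 bases at SPI1, 1912.5 at ETV6 and 2098 at FLI1. The median over the 844 protein-coding genes with 2 listed peaks and 1 start was 845.5 bases, and 19.1% of those genes had a spacing at least as large as that of SPI1.

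**Figure D2:**
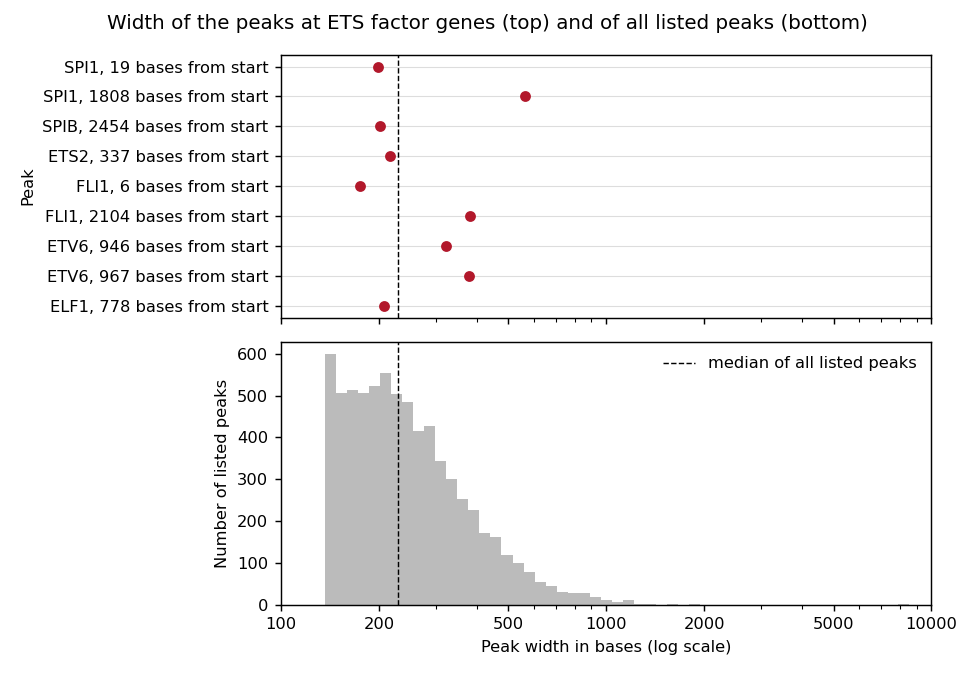
Width in bases (log scale) of each of the 9 peaks at ETS factor genes, 1 dot per peak, over the distribution of all 7029 listed peaks; the dashed line is the median of 229 bases. The SPI1 peak of 563 bases stands in the upper tail, and the FLI1 peak on its start, at 175 bases, is the narrowest of the 9.

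The nearest peak of the 6 listed genes lay at 6 bases (FLI1), 19 (SPI1), 337 (ETS2), 778 (ELF1), 946 (ETV6) and 2454 (SPIB). Their median was 557.5 bases, beside 265 for all listed protein-coding genes. FLI1 and SPI1 thus sat at the near end of the distribution, ETS2 near its middle and the others in its far part.

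**Figure D3:**
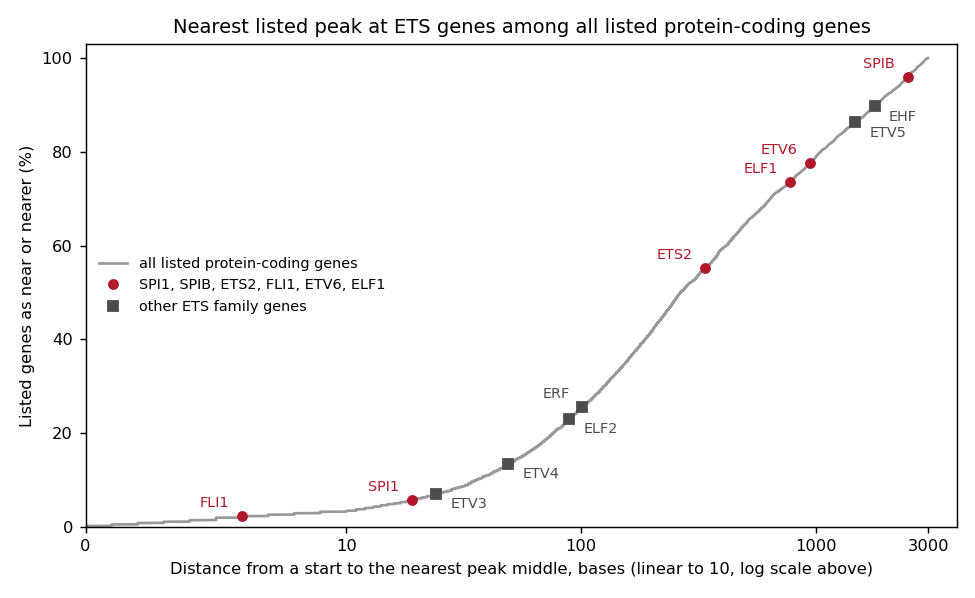
Share of listed protein-coding genes (%) whose nearest peak middle lies as close to a start or closer (grey line), against distance in bases (linear to 10, log scale above), with the 6 listed ETS factor genes as red dots and other listed ETS family genes as grey squares. FLI1 and SPI1 lie at 2.26% and 5.71%, and SPIB at 95.9%.

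ETS1, ERG, GABPA and ELF4 had no listed peak. The number of curated transcripts now in RefSeq was 4 for ETS1, 9 for ERG, 2 for GABPA and 4 for ELF4, and between 2 and 8 for the 6 listed genes. Transcripts can share a start, as those of SPIB and FLI1 do, so this is not the number of starts open to pairing. On their chromosomes, 22.4% of protein-coding genes were listed on chromosome 11 (ETS1), 24.1% on chromosome 21 (ERG and GABPA) and 11.5% on chromosome X (ELF4). The part of DNA copy number in these shares was not tested. That a gene is not listed says only that no pair with one of its transcripts is in the list, not that C/EBPβ is absent there.

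Peak names in the list carry running numbers that rise with position, and numbers without a listed pair may be peaks farther from any start. Between the SPI1 promoter peak and the next listed peak at higher positions, at SLC39A13, lay 28.2 kb and 2 such numbers. This is the side upstream of SPI1, where the upstream regulatory element of the gene is known to lie. Whether either number belongs to a peak at that element cannot be told from the list. Between the listed peaks of SPI1, of FLI1 and of ETV6 no number was missing, so each pair of peaks was consecutive. From the downstream ETV6 peak to the next listed peak, at BORCS5, 12 numbers were missing over 706 kb, and from the second FLI1 peak to PRDM10, 9 over 1254 kb.

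The same numbers were used for the members without a peak, between the nearest listed neighbours in gene order. ERG was the only protein-coding gene between KCNJ15 and LINC00114, where 6 numbers without a listed pair fell in 522 kb. ETS1 was 1 of 4 protein-coding genes between TIRAP and FLI1, with 13 such numbers in 2410 kb. ELF4 was 1 of 5 between SASH3 and AIFM1, with 3 in 355 kb. GABPA was 1 of 9 between C21orf91 and ADAMTS1 with 36 in 9025 kb. Gene order came from GRCh38, and these numbers are not positions.

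Of the 18 other ETS family genes, 6 were listed (33.3%), which made 12 of 28 for the whole family (42.9%), again beside 26.5% of all protein-coding genes. ETV4, a PEA3 group factor gene, had 5 peaks at 3 starts, the nearest at 49 bases. ELF2, a relative of ELF1 and ELF4, had 4 peaks, 1 of them 910 bases wide and 89 bases from the start. ERF, which encodes a repressor regulated by ERK, had 3 peaks with the nearest 101 bases away, and ETV3, another repressor gene, had 2 with the nearest 24 bases away. ETV5 had 2 peaks, the nearest at 1471 bases, and the epithelial factor gene EHF had 1 at 1774 bases. The median width of these 17 peaks was 227 bases. ELF3, ELF5, ELK1, ELK3, ELK4, ETV1, ETV2, ETV3L, ETV7, FEV, SPDEF and SPIC had no listed peak.

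Partner genes of ETS factors were listed for 9 of 16 (56.2%), beside 26.5% of all protein-coding genes. GABPB1 and GABPB2, which encode the partner subunits of GABPA, were both listed, the former with 3 peaks as near as 51 bases and the latter with 2 as near as 30 bases, while GABPA itself was not. RUNX1, which binds DNA together with ETS1, had 9 peaks with the nearest at 50 bases. JUN, a PU.1 partner in myeloid cells, had one of its 2 peaks 52 bases away, and TAL1 had 1 at 71 bases. The partners without a listed peak were IRF4 and IRF8, which bind beside PU.1, together with CBFB, SRF, GATA1, MYB and PAX5. CEBPA and CEBPB, the latter overexpressed here, were among the listed partners, and without these 2 genes 7 of 14 were listed (50%).

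Genes known as PU.1 targets in myeloid cells were listed for 10 of 22 (45.5%), beside 26.5% of all protein-coding genes. MPO, ELANE, CTSG and CSF3R are also among the promyelocyte genes above, so the shares of these lists are not separate observations. The nearest peaks were at CSF3R, the G-CSF receptor gene, at 34 bases, ITGB2, the common β2 integrin gene, at 57, the cathepsin G gene CTSG at 71, NCF4, an oxidase subunit gene, at 106, and the macrophage marker gene CD68 at 126. The 12 without a listed peak were CSF1R, CSF2RA, ITGAM, FCGR1A, FCGR3A, NCF1, CYBB, ELANE, LYZ, MSR1, TLR4 and PTPRC. NCF1, FCGR1A and FCGR3A have near-identical copies, and the part of read mapping in the absence of any of the 12 from the list was not tested. The median nearest distance over the 10 listed targets was 154.5 bases, beside 265 for all listed protein-coding genes and 557.5 for the 6 listed ETS factor genes.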

How the data were processed

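ChIP-seq with a C/EBPβ antibody and an input library were made from HL-60 cells overexpressing C/EBPβ, 1 library each. Per the submitters' processing notes, BWA 0.7.10, SAMtools and MACS2 2.1.1 were used with hg19, with no role or setting attached. The authors deposited a list of 17637 pairs of 7029 peaks and 12532 transcripts, with a distance and a score. The deposited score is a function of distance alone (largest difference 5e-13) and was not used. Starts were computed as peak middle minus distance: 3742 of 3744 transcripts with several peaks gave 1 start within 2 bases. Neither the file nor the labels say whether positions count from 0 or from 1.

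Members were found by deposited symbol. For background shares, transcripts were matched to RefSeq genes (GRCh38.p14), 12331 by accession, 129 by symbol and 55 by a former symbol; the other 17 retained the symbol of the list. The background genes were protein-coding, had a curated transcript and lay on an autosome or chromosome X; genes outside the authors' transcript set count as not listed. Strand came from the RefSeq promoter table, and for SPI1, FLI1 and SENCR from general knowledge. Counts and medians were computed in Python 3.11.15 with pandas 2.3.3. The counts of listed genes and of starts per gene were checked on simulated data, and the medians were not. Each simulated peak had 1 pair and the simulated starts lay far apart. The step that keeps the nearest start could therefore not fail there. Peaks shared by several starts and the merging of starts within 2 bases were not checked. No tests were run, as each group held 1 library. Members and gene lists were chosen with earlier results of these data known. All 10 members, genes sharing their peaks and all other ETS family genes were named; of the partner and target lists, the 5 genes nearest a start and those not listed. A total of 2 genes of the target list are not reported here and were left out of its counts. The alternatives were each peak given to its nearest start, windows of 1000 and 500 bases, wider peaks, other ways to count, and a background of genes with at least 2 curated transcripts.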

Additional observations from a re-analysis of the deposited data

How the results depend on the processing

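Of 28 alternative values, 19 stayed within 1.5 times the value reported and 9 moved further. The median distance per peak over the members' 9 peaks was 946 bases, beside 441 for the peaks of all protein-coding genes. With only peaks within 1000 bases of a start kept, the members' value was 557.5 bases. This is a median over peaks, and the equal value given above is a median over the nearest peak of each listed gene. Within 500 bases, 3 members, 3 peaks and 3 starts were left (FLI1, SPI1 and ETS2), with a median distance of 19 bases. With peaks wider than the median of all peaks, 3 members (SPI1, FLI1 and ETV6), 4 peaks and 3 starts were left, with a median width of 380 bases. Each of these alternatives keeps fewer pairs by construction. The share of all protein-coding genes left by the 500-base window or by the width filter was not computed. The counts of members under these filters therefore have no background beside them. When a peak was kept for its nearest start alone, 6 members were still listed, and 8 peaks were left, since the second FLI1 peak then went to SENCR. Among genes with at least 2 curated transcripts, the background share was 29.9% in place of 26.5%. No paired analysis was possible because each group held 1 library and no test was run. Without peak heights, replicates or input values, neither the strength nor the reproducibility of any peak could be examined, and read depth is unknown.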
